A study of Rattus norvegicus with 6 samples.

Results

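A stretch of 3540 nt on the plus strand of chromosome 1 (chr1:264068861-264072400, rat build rn6) carried a dense group of SYNCRIP peaks in rat cortical neurons. Its members are all peaks of the 3 deposited SYNCRIP lists that lie on that strand between those positions, 40 of 5687 peaks in replicate 1, 38 of 4163 in replicate 2 and 40 of 2733 in replicate 3. Merged over the libraries they form 41 of the 7023 regions of the series. A region is a run of same-strand peaks of any library that overlap in 1 bp or more, and a core region has a peak of all 3 libraries. The stretch was chosen from the positions of the peaks themselves, because many of its regions are core. Its peak numbers, widths, scores and overlaps are therefore given as a description, with no test. No rn6 annotation was used here, so the transcript under the stretch is not named, and neither exon nor UTR is assigned.

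The data come from iCLIP, ultraviolet crosslinking and immunoprecipitation at single-nucleotide resolution, on cytoplasmic RNA of primary cortical neurons from Sprague-Dawley rats at day 6 in vitro. All cells received 300 mJ/cm2 of UV-C. Of the 6 samples, 3 biological replicates were precipitated with the anti-hnRNPQ antibody clone 18E4 and 3 with an IgG1 isotype control. Only SYNCRIP peak lists enter the results below. The IgG samples are not analysed here, which leaves the background at each peak unknown. Depth is unknown, since the lists hold peaks and not reads.

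SYNCRIP, also called hnRNP Q, is a largely cytoplasmic protein of the heterogeneous nuclear ribonucleoprotein family that contacts RNA through RNA recognition motifs and an arginine- and glycine-rich tail. In neurons it is known as a component of the granules that carry mRNA into dendrites, and it has been linked to mRNA stability and to local translation. In iCLIP, the reverse transcriptase tends to stop at the crosslinked nucleotide, so the ends of the sequenced fragments pile up at contact sites. Piranha, the caller named in the deposited lists, counts sequenced fragments in bins, here of 20 nt, and joins neighbouring bins that pass its threshold. Whether whole fragments or only their ends were counted is not stated in the sources used here.

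The stretch stood alone on its strand. In none of the 3 lists was there another plus-strand peak within 10 kb on either side. The nearest one upstream of any library was at chr1:260807241-260807260, 3261600 nt away, with a score of 42 in replicate 1. The nearest one downstream was at chr1:266793321-266793360, 2720920 nt away, with a score of 38 in the same library. The edges of the stretch are thus far from any neighbouring peak and would not move with a wider window of up to 10 kb. No minus-strand peak overlapped the stretch in any list.

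Peak number hardly followed the length of the deposited lists. Replicates 1, 2 and 3 had 40, 38 and 40 peaks in the stretch, a mean of 39.3 ± 1.2 (SD, n = 3), although the list of replicate 3 was 0.481 times as long as that of replicate 1. The stretch accordingly made up 0.703% of the peaks of replicate 1 (95% Wilson interval 0.517 to 0.956). It made up 0.913% (0.666 to 1.25) in replicate 2 and 1.46% (1.08 to 1.99) in replicate 3. The share was highest in the shortest list and lowest in the longest. These intervals cover counting error only and treat neighbouring peaks as independent. Of all plus-strand peaks on chromosome 1, the stretch held 14.2%, 18.6% and 27.4% in replicates 1, 2 and 3. The lists also differed in their lowest score, which was 32, 26 and 20. With each list kept to its 2733 highest-scoring peaks, the mean fell to 34.3 peaks. Replicate 3, whose list stays whole, kept 40, so peak number was not constant at equal list length.

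**Figure D1:**
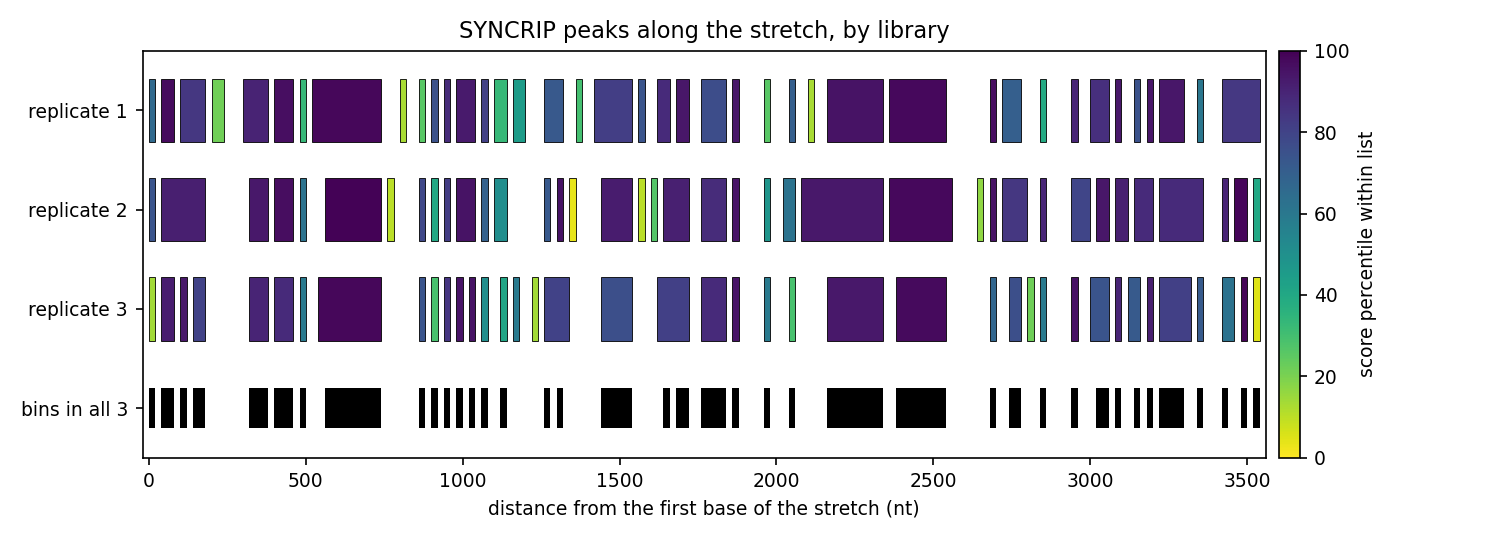
Peaks of replicates 1, 2 and 3 along the stretch, by distance from its first base in nt, coloured by the percentile of their score within their own list; the lowest track marks the 20-nt bins covered in all 3 libraries. The 81 bins covered in all 3 libraries are spread over the whole length, and the widest blocks lie near 500 to 740 and 2160 to 2540 nt.

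Peaks covered over 50% of the stretch in each library. They spanned 2080 nt in replicate 1, 2140 nt in replicate 2 and 1860 nt in replicate 3, or 58.8%, 60.5% and 52.5% of its length (57.3% ± 4.2, SD, n = 3). Coverage was lowest in replicate 3, which has the shortest list. Of the 177 bins of 20 nt, 81 (45.8%) were covered in all 3 libraries, 16 in exactly 2, 29 in 1 and 51 in none. Among bins covered in only 1 library, 16 belonged to replicate 2, 9 to replicate 1 and 4 to replicate 3. The bins covered in all 3 libraries made up 64.3% of the 126 bins covered in any.

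The uncovered bins were scattered as short breaks rather than gathered in 1 place. The 51 bins without a peak in any library fell into 34 breaks, of which 25 were a single bin long. The longest breaks measured 80 nt, and there were 3 of them, at 1881 to 1960, 2561 to 2640 and 2861 to 2940 nt from the first base (chr1:264070741-264070820, chr1:264071421-264071500 and chr1:264071721-264071800). Within single libraries the longest gap between neighbouring peaks was 140 nt in each of the 3 lists. The median gap was 20 nt in each library, which is the shortest gap possible between separate peaks of 1 list. Such 1-bin gaps made up 20 of 39 in replicate 1, 25 of 37 in replicate 2 and 22 of 39 in replicate 3. Peak centres followed each other at a median distance of 80, 70 and 70 nt.

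No part of the stretch was free of peaks. Cut into 6 consecutive parts of 29 or 30 bins, coverage averaged over the libraries ranged from 51.7% ± 3.4 between 1181 and 1760 nt to 62.1% ± 6.0 between 2961 and 3540 nt (SD, n = 3). Between the libraries of a part, the SD was 3.4 to 8.8 percentage points. Bins covered in all 3 libraries made up 34.5% of the part from 1181 to 1760 nt and 53.3% of the part that follows it, from 1761 to 2360 nt. The median score percentile was 87.9 ± 3.7 in the first part, 75.3 ± 2.3 in the second and 74.8 ± 2.9 in the third. From 1761 nt on it was between 83.0 and 83.6, with an SD of 8.0 to 10.3. In each library these medians rest on only 4 to 9 peaks per part.

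Peaks in the stretch were wider than peaks of the lists at large. Single-bin peaks numbered 20 of 40, 19 of 38 and 24 of 40, or 53.3% ± 5.8, against 76.9% ± 1.5 of the whole lists (SD, n = 3). Peaks of at least 100 nt numbered 5, 6 and 6, or 14.4% ± 1.7, against 3.17% ± 0.24. The single-bin share was below, and the share of wide peaks above, that of the own list in each of the 3 libraries. The widest peaks measured 220, 260 and 200 nt, and none was the widest of its list, where widths reached 460, 380 and 340 nt. Neighbouring bins that pass are joined, so these widths are not independent of the density for which the stretch was chosen.

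**Figure D2:**
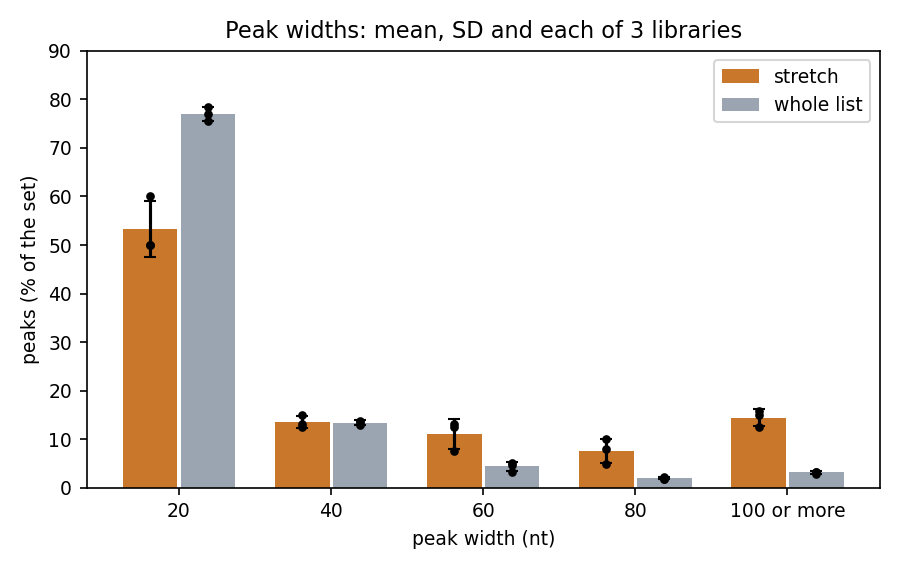
Share of peaks by width in nt in the stretch and in the whole lists; bars are means of 3 libraries, error bars the SD and points the single libraries. In the stretch 53.3% of peaks were 20 nt wide and 14.4% were 100 nt or wider, against 76.9% and 3.17% of the whole lists.

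Scores were high within each list without being extreme. The score is a whole number given by the authors for each peak, and neither its unit nor its scaling is stated, so it is ranked only among peaks of the same list. In replicate 1 the scores of the stretch ran from 34 to 172 with a median of 68.5, in a list whose median was 45. In replicate 2 they ran from 26 to 169 with a median of 63.5, against 36, and in replicate 3 from 20 to 110 with a median of 37.5, against 27. The stretch thus reached down to the lowest score of the list, 26 and 20, in replicates 2 and 3. As percentiles of the own list, with ties at their mid-rank, the medians were 81.5, 87.8 and 78.0 (82.5 ± 5.0, SD, n = 3). Scores above the list median were found for 30 of 40, 30 of 38 and 33 of 40 peaks, and 13, 15 and 12 peaks were in the highest decile. The best peak of the stretch ranked 101st of 5687, 31st of 4163 and 27th of 2733.

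Width and score went together, in part. In the lists at large, single-bin peaks had a median percentile of 42.6 ± 1.6 and wider peaks of 72.4 ± 0.3. In the stretch the medians were 68.2 ± 4.5 and 86.7 ± 5.2 (SD, n = 3), so both kinds of peak ranked above their counterparts. The stretch was chosen for its core regions, and its peaks without a partner ranked low. High ranks may thus not be independent of that choice. Ranked only among peaks of the same width in the same list, the median percentile of the stretch was 73.6, against 82.5 among all widths. Spearman's rho between width and score over the peaks of the stretch was 0.45, 0.55 and 0.37 in replicates 1, 2 and 3 (n = 40, 38 and 40 peaks of the same library, a description with no test).

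Of the 41 regions, 30 (73.2%) were core, 2 had peaks of 2 libraries and 9 of 1. Over all regions of the series, 24.9% were core, a share that carries no reading here because the stretch was chosen for its core regions. The 32 regions with peaks of at least 2 libraries made up 78.0%, against 48.2% of all regions. The core regions had a median width of 60 nt, with 10 that were 1 bin wide and 8 that spanned at least 100 nt. Neighbouring regions were separated by a single bin in 25 of 40 cases and touched without overlap in 6. A merged region is therefore often only a bin away from the next, and the number of core regions depends on where such breaks fall. With a reciprocal overlap of 50% required, 25 of 56 regions (44.6%) were core, and with peaks up to 20 nt apart joined all 10 regions were. For these settings no share over all regions of the series is given, and the 24.9% holds for the 1-bp overlap only.

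The 2 highest core regions were wide and ranked alike in the 3 libraries. The first lay 521 to 740 nt from the first base (chr1:264069381-264069600) and scored 172, 169 and 94 in replicates 1, 2 and 3, with a mean percentile of 98.6 ± 0.6 (SD, n = 3). It was the top peak of the stretch in replicates 1 and 2 and the second in replicate 3. Its end was the same in all 3 lists, while its start was at 521, 561 and 541 nt. The second lay at 2361 to 2560 nt (chr1:264071221-264071420) and scored 162, 125 and 85, with a mean percentile of 97.8 ± 0.2. A break of 1 bin divided it from the widest region, at 2081 to 2340 nt (chr1:264070941-264071200), where the highest peak of each library scored 115, 81 and 60. In replicate 2 each of the pair was a single peak, of 260 and 200 nt.

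A narrow region ranked just behind them. The third core region was a single bin at 1861 to 1880 nt (chr1:264070721-264070740), where the scores were 105, 87 and 65 and the mean percentile 94.5 ± 0.6. It had the same start and end in all 3 lists and was flanked downstream by one of the 80-nt breaks. The fourth, at 981 to 1040 nt (chr1:264069841-264069900), scored 101 and 88 as 1 peak in replicates 1 and 2, while replicate 3 had separate peaks of 65 and 66 on either side of an uncovered bin. Such a split was not peculiar to 1 library, since replicate 2 divided the region at 1261 to 1340 nt into peaks of 46 and 88 that were joined in the other libraries.

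The fifth by mean percentile was the widest region, at 2081 to 2340 nt, with 94.1 ± 0.9 (SD, n = 3). The other core regions among the 10 highest lay in the first 460 nt and in the last 460 nt. At 41 to 180 nt (chr1:264068901-264069040) the highest peaks scored 138, 73 and 60, in 2, 1 and 3 separate peaks. At 401 to 460 nt (chr1:264069261-264069320) the same 60-nt peak was called in all 3 lists and scored 127, 104 and 47. At 301 to 380 nt (chr1:264069161-264069240) the scores were 90, 81 and 51. Near the downstream end, the region at 3081 to 3120 nt (chr1:264071941-264071980) scored 103, 72 and 50. The 10 highest core regions were thus placed towards both ends as well as in the middle of the stretch.

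The ends of the stretch differed in rank. The first region, a single bin at 1 to 20 nt (chr1:264068861-264068880), scored 53, 47 and 21, which is the 65.9th, 74.0th and 14.0th percentile. The last, at 3421 to 3540 nt (chr1:264072281-264072400), was 1 peak with a score of 72 in replicate 1, but 3 peaks in each of the other libraries. In replicate 2 these scored 68, 140 and 33 and in replicate 3 they scored 30, 110 and 20. The middle one, at 3481 to 3500 nt, was the top peak of the stretch in replicate 3, and the one at 3461 to 3500 nt was the second in replicate 2. In replicate 1 the region ranked at the 83.7th percentile, against 98.6 and 99.0 in replicates 2 and 3. The peak of replicate 1 is 120 nt wide and has a single score, so a maximum within it cannot be seen. Whether the libraries differ at the downstream end is therefore not known.

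**Figure D3:**
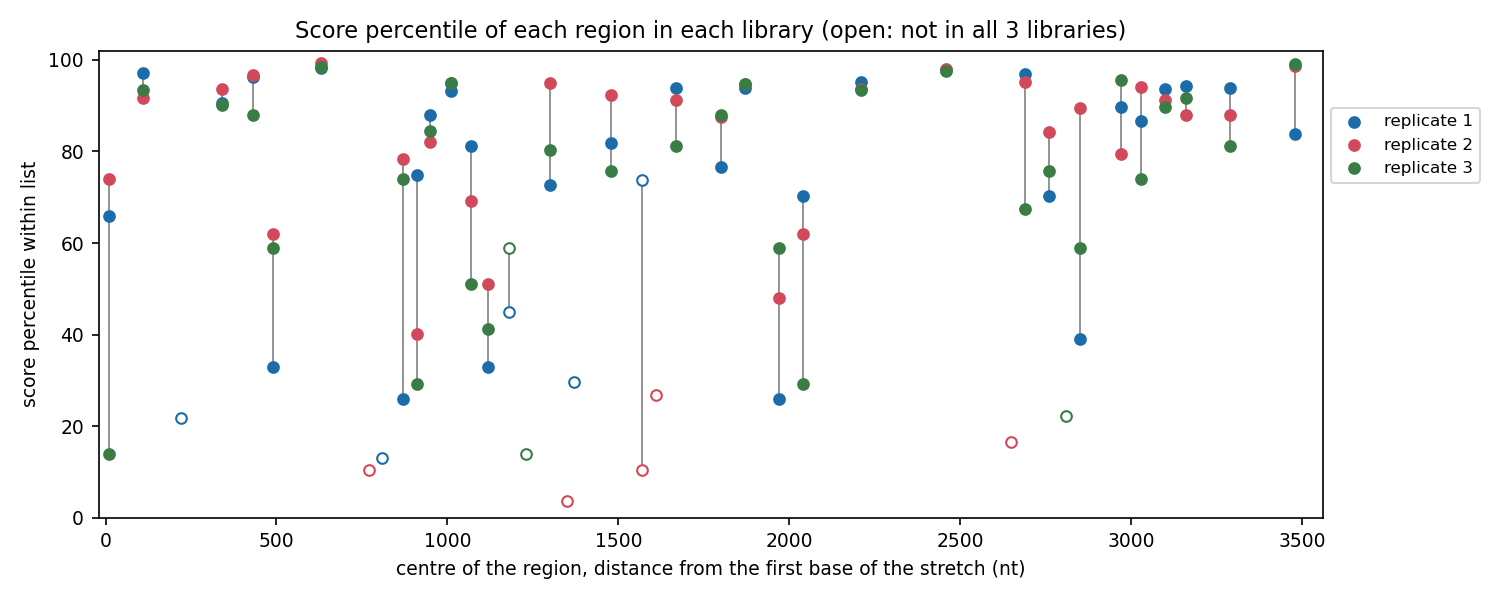
Score percentile within the own list (y axis) of the highest peak of each region in replicates 1, 2 and 3, by the distance of the region's centre from the first base in nt; filled points are core regions, open points regions missing from a library, and grey lines join the libraries of a region. In 7 core regions all 3 libraries lie above the 90th percentile, and the open points of regions found in 1 library all lie below the 30th.

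Libraries ranked most core regions alike, with exceptions among the narrow ones. In 22 of the 30 core regions every library was above the 50th percentile of its list, in 17 above the 75th and in 7 above the 90th. The difference between the highest and lowest percentile of a region had a median of 14.7 points, and it exceeded 50 points in 3 regions, each 1 bin wide. These were the first region, that at 861 to 880 nt with scores of 37, 51 and 35, and that at 2841 to 2860 nt with scores of 41, 67 and 29. Replicate 1 ranked lowest in the last 2 of them and replicate 3 in the first. Percentiles rise faster with score low in a list than high in it. In replicate 3, scores of 21 and 29 were at the 14.0th and 59.0th percentile, and 60 and 110 at the 93.5th and 99.0th. Ranges of low-scoring and high-scoring regions are thus not alike in scale. The region at 2681 to 2700 nt scored 133, 89 and 32, so that it was in the highest decile of replicates 1 and 2 but at the 67.5th percentile of replicate 3. Over the 30 core regions, Spearman's rho of the score was 0.70 in each of the 3 pairs of libraries. That value describes regions of 1 strand and 1 stretch that share their libraries and differ in width, and it carries no test. None of these counts, ranges or correlations was computed for the 1747 core regions of the series. No trait particular to the stretch is therefore shown by them.

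In part of the core regions the peak borders were the same to the bin. In 22 core regions each library had exactly 1 peak, and 12 of these had the same start and end in all 3 lists, 10 of them being 1 bin wide. A further 6 shared the end alone, 2 the start alone and 2 neither. In the other 8 core regions at least 1 library had more than 1 peak. The peaks with coordinates common to all 3 lists made up 30%, 31.6% and 30% of the peaks of the stretch in replicates 1, 2 and 3, against 14.3%, 19.6% and 29.8% of the whole lists. In replicate 3 the share in the stretch was thus near that of its list. Of all distinct peak coordinates in the lists, 9.04% were found in all 3. In each deposited list the 815 entries with coordinates common to all 3 libraries come first, including the 12 of the stretch, so the order of each list was set with the other lists in view. Its part in the matching borders was not tested.

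Peaks seen in 1 library ranked low. Of the 118 peaks of the stretch, 109 overlapped a peak of another library. Counted by region, 78.0% of those in the stretch had peaks of at least 2 libraries, against 48.2% over the series. The 9 peaks without a partner were at the 3.6th to 29.7th percentile of their lists, and 8 of them were 1 bin wide. In the whole lists 76.9% of all peaks were 1 bin wide. Ranks and widths of peaks without a partner were not computed there, so no trait particular to the stretch is shown. Replicate 1 had 3, at 201 to 240, 801 to 820 and 1361 to 1380 nt, with scores of 36, 34 and 38. Replicate 2 had 4, at 761 to 780, 1341 to 1360, 1601 to 1620 and 2641 to 2660 nt, with scores of 27, 26, 30 and 28. Replicate 3 had 2, at 1221 to 1240 and 2801 to 2820 nt, with scores of 21 and 22. Low rank did not always go with a missing partner, since 8 of the 17 peaks below the 30th percentile had one. The 2 regions found in exactly 2 libraries were at 1161 to 1200 nt, with scores of 43 in replicate 1 and 29 in replicate 3, and at 1561 to 1580 nt, with 59 in replicate 1 and 27 in replicate 2.

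By library, 86.8% to 95% of the peaks of the stretch overlapped a peak of a given other library, a mean of 90.2% over the 6 ordered pairs. The highest share was that of replicate 3 against replicate 1, with 38 of 40 peaks (95%, 95% Wilson interval 83.5 to 98.6), and the lowest that of replicate 2 against replicate 3, with 33 of 38 (86.8%, 72.7 to 94.2). Both intervals treat neighbouring peaks as independent, and the stretch was chosen for its overlap between libraries, so they do not measure reproducibility. Over the whole lists the same shares ranged from 36.3% to 81.4%, with a mean of 60.9%. Counted in bins, 93.5% of those covered by replicate 3 were also covered by replicate 1 and 77.6% of those covered by replicate 2 were also covered by replicate 3. As peaks fill over 50% of the stretch in each library, overlaps of this kind arise often wherever peaks fall, and no chance level was computed.

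The stretch was set beside the 2 nuclear clusters most like it, those with the most core regions apart from it when regions of 1 strand are chained over gaps of at most 200 nt. These lie on the minus strand of chromosome X (chrX:115098681-115105800, 7120 nt, 73 regions) and on the plus strand of chromosome 9 (chr9:73459241-73462920, 3680 nt, 39 regions). The stretch had 11.1 ± 0.3 peaks per kb, against 9.04 ± 0.08 on chromosome X and 9.33 ± 0.31 on chromosome 9 (SD, n = 3), with more in each of the 3 libraries. The core share was 73.2% in the stretch, 45.2% on chromosome X and 64.1% on chromosome 9. Among the 49 nuclear clusters of at least 10 regions the core share had a median of 38.1% and a range from 10.0% to the 73.2% of the stretch. By core regions per kb the stretch, with 8.47, had rank 2 among them. The cluster of highest rank by that measure is not one of those compared here. All 3 clusters were picked for their core regions, so these differences were not tested. The core shares of the other clusters were not computed with a reciprocal overlap, under which that of the stretch was 44.6%.

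In the deposited lists, peak number was nearly constant over the libraries in all 3 clusters. It was 65, 64 and 64 on chromosome X and 35, 35 and 33 on chromosome 9. For those 2 clusters it was not computed at equal list length. Covered length varied on chromosomes X and 9, and less so in the stretch, with 58.8%, 60.5% and 52.5%. On chromosome X it fell from 62.9% in replicate 1 to 50.3% in replicate 2 and 38.5% in replicate 3, and on chromosome 9 the values were 52.7%, 42.4% and 37.5%. Replicate 3 covered 0.894 times the length of replicate 1 in the stretch, 0.612 times on chromosome X and 0.711 times on chromosome 9. The covered share of the stretch was above that of chromosome 9 in each of the 3 libraries and above that of chromosome X in 2 of 3. The median score percentile was 82.5 ± 5.0 in the stretch, 72.1 ± 5.3 on chromosome X and 79.1 ± 5.3 on chromosome 9. The means of the stretch and of chromosome 9 differed by less than the SD between libraries. Within libraries the stretch was below chromosome 9 in replicate 1 (81.5 against 85.2). It was above chromosome 9 in replicates 2 (87.8 against 76.3) and 3 (78.0 against 75.8).

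**Figure D4:**
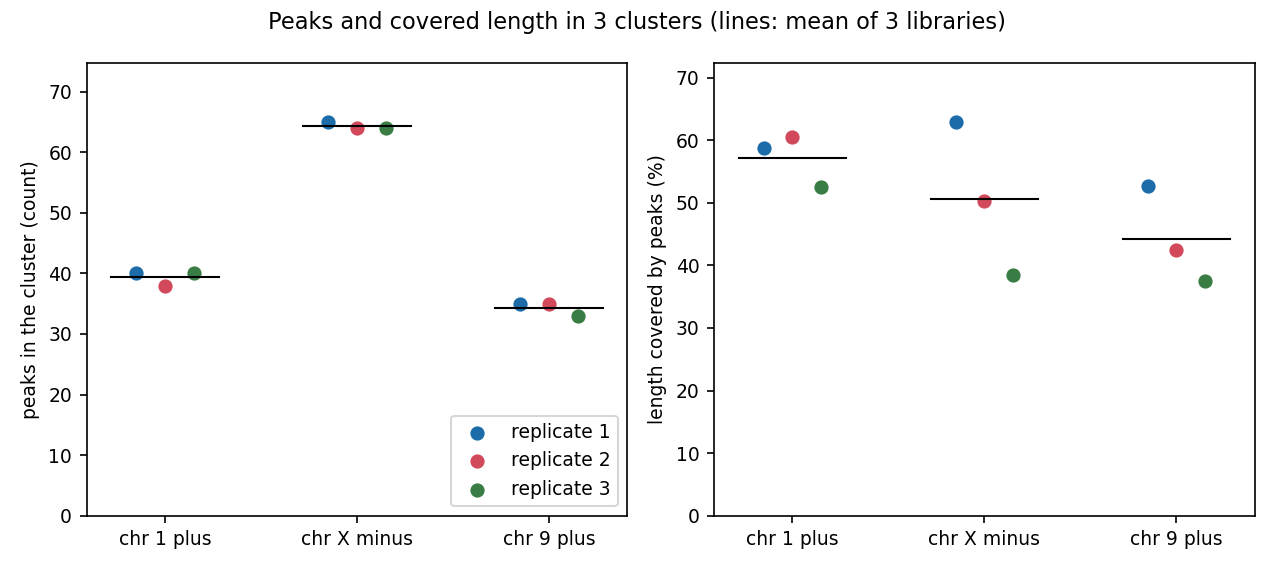
Peaks per library (left, count) and share of the length covered by peaks (right, %) in the chromosome 1 stretch and in the clusters on chromosomes X and 9; points are libraries and lines means of 3. In the deposited lists the peak count hardly varies over the libraries in any cluster. The covered share in replicate 3 is 52.5% in the stretch, 38.5% on chromosome X and 37.5% on chromosome 9.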

How the data were processed

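Peak lists of 3 SYNCRIP iCLIP libraries were used. The submitters' processing notes name STAR, with no version, and rn6. Per the file names, the authors called peaks with Piranha in bins of 20 nt, with 1 deposited list per library. For the threshold, the collapse of duplicates and a role of IgG in calling, nothing is given in the sources used here. As deposited, the score is a whole number per peak whose scale is not stated, so it was ranked within a list only. The remaining column is 0 throughout. A single malformed entry of replicate 1 was left out.

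Positions are 1-based on rn6. Regions, overlaps and mid-rank percentiles were computed in Python 3.11.15 with pandas 2.3.3 and scipy 1.17.1, and the overlap functions were tested on simulated data. The members, the lists and the alternatives were chosen with earlier results of these data known. Regions were named by rule: the 10 core regions of highest mean percentile (score of the highest peak where a library has several), the widest region, all regions that are not core, both ends with the nearest outside peaks, and the longest breaks. Regions with the largest percentile ranges, the region at 1261 to 1340 nt and that at 2681 to 2700 nt were added after their values were seen. No rn6 sequence or annotation was used here, so no gene, transcript location or sequence is given. Biological replicates are the submitters' description.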

Additional observations from a re-analysis of the deposited data

How the results depend on the processing

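The mean peak number was 39 to 40 with 1 replicate left out and 29 under a stricter score (1.5 times the lowest of the list, or more). Covered length was 2027 nt as reported, 1970 to 2110 nt with 1 replicate left out and 1793 nt under the stricter score, since fewer peaks enter. There were 30 core regions of 41 (73.2%), and 31 to 34 when a replicate was left out and a peak in both others was enough. There were 25 of 56 regions (44.6%) with a reciprocal overlap of 50% and 10 of 10 when peaks up to 20 nt apart were joined, because 1-bin breaks then close. Of the bins, 81 were covered in every library, or 83 to 89 without a replicate. The mean share of peaks with a partner was 90.2%, 89.7% to 91.2% with 1 replicate left out, 72.0% with a reciprocal overlap of 50% and 99.2% with a distance of up to 20 nt. The median percentile of 82.5 became 79.8 to 84.7 with 1 replicate left out, 73.7 under the stricter score, where the low scores leave the list, and 73.6 among peaks of the same width. With each list kept to its 2733 highest-scoring peaks, a mean of 34.3 peaks per library and 25 core regions remained. Replicate 3, whose list stays whole, then had 40 peaks. No paired analysis was possible because IgG, the only group with matching replicate numbers, is not analysed here. Location in the transcript was not run for lack of an rn6 annotation. Depth is unknown, so a bin without a peak is not shown to be unbound.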
